A study of Drosophila melanogaster with 2 samples.

Results

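The genes described here encode proteins of the cytoplasmic ribosome of Drosophila melanogaster or are named after such proteins. They are the protein-coding genes whose symbol begins with RpL or RpS followed by a digit or P, together with sta, which encodes the small subunit protein called RpSA in mammals. The gene models gave 93 such genes among the 13945 protein-coding genes of the main chromosome arms. Of the 93, 54 are named for the large subunit and 39 for the small subunit. Positions of the CG30020 protein on chromatin were mapped by ChIP-seq (immunoprecipitation of chromatin, then sequencing) in whole embryos of both sexes, collected over 0 to 24 h, of a transgenic line in which CG30020 carries GFP at its C terminus. An antibody against GFP was used. There was a single group of embryos, with biological replicates 2 and 3 and no contrast between conditions, so the values below are descriptions without tests. The embryos hold every tissue, and binding in a few cells cannot be told apart from weak binding in many.

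Ribosomal protein genes are among the most strongly transcribed genes of a growing animal, and their products are needed in equal amounts because each ribosome holds a fixed set. In flies, loss of a single copy of many of them gives the Minute phenotype of slow development and thin bristles. Their promoters usually start transcription in a run of pyrimidines, the TCT initiator, in place of the common initiator, and in flies the factors TRF2 and M1BP have been tied to their expression. Some ribosomal proteins have more than 1 gene, and in flies several of the extra copies are expressed mainly in the germline.

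A gene was counted as bound when the summit of a peak lay within 500 bp of any of its annotated transcription start sites (TSSs). In the authors' list of peaks thresholded by irreproducible discovery rate (IDR), which draws on both replicates, 77 of the 93 ribosomal protein genes were bound (82.8%), against 30.7% of all protein-coding genes. With all peaks of the relaxed lists 85 genes were bound (91.4%) in the pooled, the replicate 2 and the replicate 3 list alike, where all protein-coding genes reached 46.3%, 49.4% and 48%. With only the 5048 strongest peaks of a replicate, the number in the IDR list, replicate 2 gave 72 genes (77.4%, against 29.8% of all genes) and replicate 3 gave 78 (83.9%, against 30.8%). Those replicate lists shared 67 of the genes, 5 were in replicate 2 only, 11 in replicate 3 only and 10 in neither.

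The large subunit had the higher share of bound genes in each of the 6 lists examined. In the IDR list 47 of 54 large subunit genes (87%) and 30 of 39 small subunit genes (76.9%) were bound. The strongest peaks of replicate 2 gave 45 large subunit genes (83.3%) and 27 small subunit genes (69.2%), and those of replicate 3 gave 49 (90.7%) and 29 (74.4%). Among genes without a paralogue in the list, 36 of 40 for the large subunit (90%) and 24 of 26 for the small subunit (92.3%) had an IDR summit, which is the opposite order. In the strongest peaks of a replicate the large subunit had the higher share among these genes, with 90% against 80.8% in replicate 2 and 95% against 88.5% in replicate 3. In the pooled list 97.5% of these large subunit genes and 100% of these small subunit genes had a summit.

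**Figure D1:**
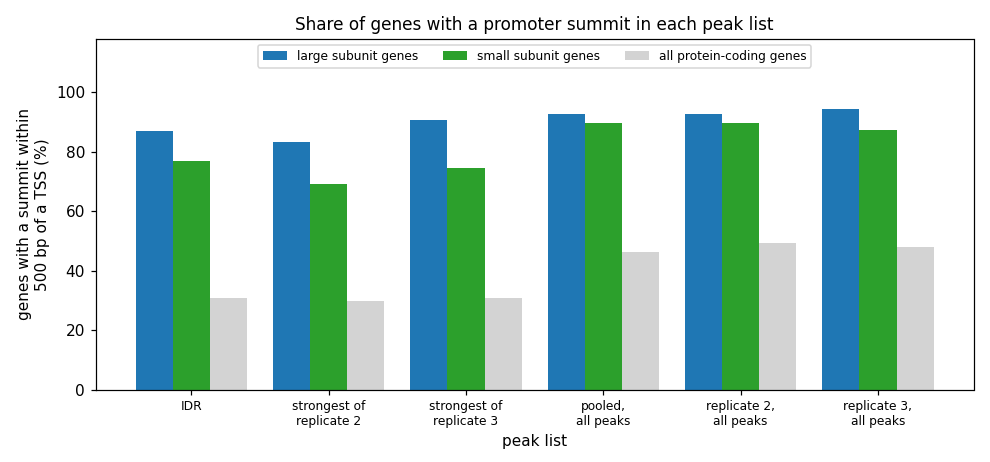
Share of genes with a peak summit within 500 bp of a TSS (percent, vertical axis) in each of 6 peak lists (horizontal axis), for large subunit genes, small subunit genes and all protein-coding genes. In the IDR list the shares are 87%, 76.9% and 30.7%, and each list keeps that order.

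Of the 16 genes without an IDR summit, 10 belonged to groups of paralogues. Symbols that differ only by a letter or number suffix or by the ending -like formed 13 groups with 27 genes, of which 17 were bound (63%), against 60 of the 66 other ribosomal protein genes (90.9%). All genes were bound in 5 groups, some in 7 and none in 1. The 5 include RpL24, RpL7 and RpLP0, whose second gene ends in -like and resembles an assembly factor, as described below. In 6 of the 7 groups with some genes bound, another gene of the group had no summit in any of the 4 lists. Those genes were RpL10Aa, RpL22-like, RpL37-2, RpS5b, RpS10a and RpS28-like. RpS5b and RpS10a are known for expression in the germline and RpL22-like for expression in the testis, and the series holds no expression data for them.

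The deposited signal of a summit was divided by that of the median IDR peak, and in each replicate list by the median of the peaks that match the IDR set. This ratio is called the multiple below. It was taken in each list at the strongest summit in the window, so values of the same gene can come from different summits. At RpS5a on X, the widely expressed partner of RpS5b, the multiple was 0.966 in replicate 2 and 0.748 in replicate 3 (0.920 in the IDR list), with the summit 79 bp upstream of the TSS. The nearest IDR summit to RpS5b on 3R lay 2620 bp upstream. RpS10b on X stood at 0.871 and 1.50 in replicates 2 and 3 (1.43 in the IDR list), whereas RpS10a on 3R had its nearest IDR summit 16581 bp away. RpL10Ab on 3L stood at 1.86 in replicate 2 and 0.811 in replicate 3, but its strongest IDR summit lay nearer to the starts of CG11597 and CG5946. The nearest IDR summit to RpL10Aa on 3R was 58498 bp away. RpS19a on X stood at 1.07 and 0.865 in replicates 2 and 3, from different summits, at -382 and -40 bp from the TSS (negative is upstream). The strongest IDR summit of RpS19a lay nearer to the start of Rok. Its partner RpS19b on 3R, known for expression in the germline, had a weak summit in replicate 2 only, at 0.0782, and the nearest IDR summit lay 918 bp upstream. RpS28b on X stood at 0.519 and 0.715, also from different summits, at -449 and -14 bp. In the same group RpS28a on 3R had a summit in the pooled list only, at 0.0708, and RpS28-like on 2L had none. In these 5 groups no gene without an IDR summit had a summit in both replicate lists.

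The start regions of these pairs are printed to show that the bound and unbound copies do not share their promoter sequence. Each line runs from 100 bases before the annotated start to 20 bases from the start on, in the direction of the gene, so that the last 20 letters open with the first transcribed base. Capitals mark TCTTT, the core of the TCT initiator, within 20 bases of the start, and TATCGATA, the DNA replication-related element, and CACGTG, an E-box, anywhere in the line. The sequence is that of Release 6, which is dm6.
RpS5a: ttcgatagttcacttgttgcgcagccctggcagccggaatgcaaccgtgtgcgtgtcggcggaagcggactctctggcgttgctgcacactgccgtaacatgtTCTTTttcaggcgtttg
RpS5b: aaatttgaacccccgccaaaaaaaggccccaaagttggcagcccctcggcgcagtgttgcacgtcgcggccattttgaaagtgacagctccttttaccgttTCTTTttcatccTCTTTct
RpS10b: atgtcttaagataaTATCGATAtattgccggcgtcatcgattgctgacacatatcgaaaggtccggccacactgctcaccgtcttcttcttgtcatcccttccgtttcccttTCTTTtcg
RpS10a: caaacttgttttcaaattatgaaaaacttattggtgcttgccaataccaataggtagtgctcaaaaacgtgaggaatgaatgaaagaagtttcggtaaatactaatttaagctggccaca
RpS19a: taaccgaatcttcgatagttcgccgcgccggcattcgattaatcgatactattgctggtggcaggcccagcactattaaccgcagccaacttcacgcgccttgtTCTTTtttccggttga
RpS19b: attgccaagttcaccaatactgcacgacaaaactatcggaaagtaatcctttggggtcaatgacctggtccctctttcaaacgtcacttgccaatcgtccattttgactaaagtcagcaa
RpS28b: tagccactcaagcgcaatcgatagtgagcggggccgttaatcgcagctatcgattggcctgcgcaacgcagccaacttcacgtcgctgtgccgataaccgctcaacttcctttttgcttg
RpS28a: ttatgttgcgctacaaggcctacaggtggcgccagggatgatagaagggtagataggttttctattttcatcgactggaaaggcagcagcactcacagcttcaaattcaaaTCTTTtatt
RpL10Ab: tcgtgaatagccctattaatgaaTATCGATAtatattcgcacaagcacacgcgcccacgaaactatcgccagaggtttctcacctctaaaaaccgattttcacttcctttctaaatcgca
RpL10Aa: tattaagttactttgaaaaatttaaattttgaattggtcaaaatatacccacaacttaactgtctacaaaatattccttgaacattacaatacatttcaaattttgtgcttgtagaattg

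RpS5a lies at chrX:17148245-17148364 and RpS5b at chr3R:14901544-14901663, both on the minus strand. RpS10b lies at chrX:19597940-19598059 and RpS10a at chr3R:27652660-27652779, both on the plus strand. RpS19a lies at chrX:16637794-16637913 (plus strand) and RpS19b at chr3R:23933511-23933630 (minus strand). RpS28b lies at chrX:9554523-9554642 (plus strand) and RpS28a at chr3R:30022629-30022748 (minus strand). RpL10Ab lies at chr3L:11822751-11822870 and RpL10Aa at chr3R:15037266-15037385, both on the plus strand. For RpS10b the line is taken at the start that holds TCTTT, which is not its outermost one. TCTTT stood at the start of bound RpS5a, RpS10b and RpS19a, but also at that of RpS5b and RpS28a, which had no IDR summit, and was not found at bound RpS28b and RpL10Ab. These letters were thus present and absent among bound and unbound copies alike. Only the exact letters TCTTT were searched. A run of pyrimidines spelled otherwise, such as cttccttt at RpS28b and RpL10Ab, was not counted, so these starts are not shown to lack a TCT initiator.

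Other groups were bound at both genes. RpL34a on 3R stood at 1.12 in replicate 2 and 1.77 in replicate 3 (1.72 in the IDR list), and RpL34b, also on 3R, at 1.85 and 1.60 (1.87 in the IDR list). Their values overlap, and both genes share their upstream region with a gene on the other strand, Trmt61 at RpL34a and CG8132 at RpL34b. RpS14a and RpS14b lie next to each other on X, and each had a summit of its own, 186 bp and 10 bp upstream of its TSS. RpS14a stood at 0.839 and 0.941, RpS14b at 0.377 and 0.673. The start regions of the RpL34 pair are printed in the same way (chr3R:26059248-26059367 and chr3R:9401207-9401326, minus strand).
RpL34a: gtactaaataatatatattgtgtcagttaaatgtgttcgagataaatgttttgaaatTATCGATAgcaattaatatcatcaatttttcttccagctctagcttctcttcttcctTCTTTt
RpL34b: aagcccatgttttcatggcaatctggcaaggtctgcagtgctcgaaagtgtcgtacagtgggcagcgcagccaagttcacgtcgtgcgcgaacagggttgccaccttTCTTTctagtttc

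A further 3 bound genes carry a ribosomal name but resemble factors that in yeast assemble the large subunit and are not part of the finished ribosome. RpL24-like (yeast Rlp24) stood at 1.98 and 1.95 in replicates 2 and 3, above RpL24 itself at 0.590 and 1.20. RpL7-like (yeast Rlp7) stood at 0.251 and 0.593, below RpL7 at 1.14 and 1.85, and in the IDR list its multiple of 0.543 was the lowest of all bound ribosomal protein genes. RpLP0-like (yeast Mrt4) stood at 0.595 and 0.791, below RpLP0 at 2.01 and 2.22. The strongest summit at RpL24-like was nearer to the start of CG5276, its neighbour on the other strand. The RpS15A group was the only group with no IDR summit at all. RpS15Aa on X stood at 0.578 and 0.346 in replicates 2 and 3 and RpS15Ab on 2R at 0.190 and 0.431, with summits in all 3 relaxed lists for both genes. In the remaining groups RpL22 on X stood at 0.650 and 0.879 and RpL37-1 on X at 0.416 and 0.711. Their partners RpL22-like and RpL37-2, both on 2R, had no summit.

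**Figure D2:**
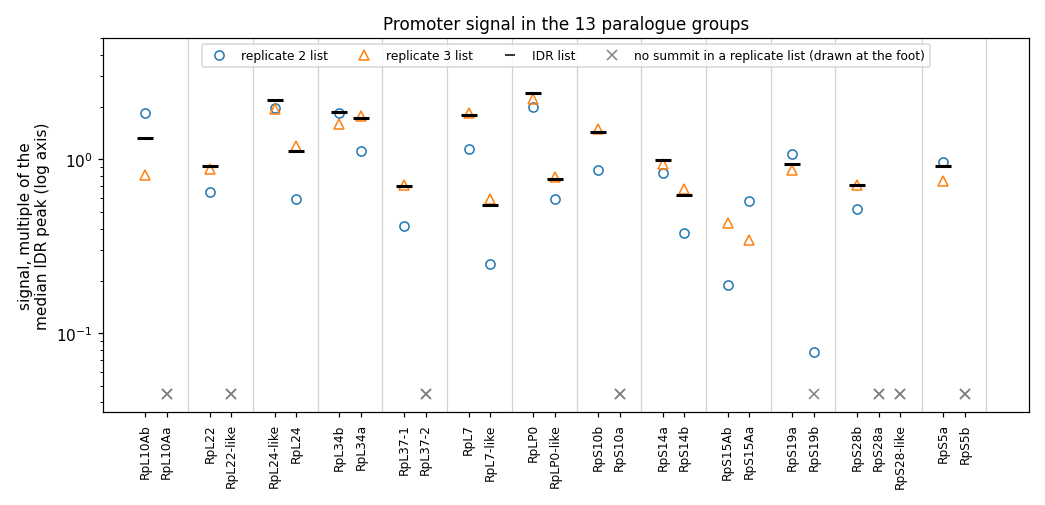
Signal of the strongest promoter summit relative to the median IDR peak (log axis) for each gene of the 13 paralogue groups, in the replicate 2 list (circles), the replicate 3 list (triangles) and the IDR list (bars). Crosses at the foot mark genes with no summit in a replicate list, such as RpS5b beside RpS5a (0.966 and 0.748).

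From 250 bases before to 50 after the outermost start, the longest run of letters shared within any paralogue group was 11 bases, at RpS14a and RpS14b. Within 250 bp of the outermost TSS, 90 of the 93 genes had only 32-base words that occur once in the genome. The exceptions were RpS15Ab (88.9% of words unique), RpL17 (96.8%) and RpL7A (96.8%), and none of these 3 was bound in the IDR list. The part that mapping played there was not tested.

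Outside the paralogue groups 6 genes lacked an IDR summit, and all but RpL39 had weak summits in each relaxed list. RpS15 came closest, at 0.532 in replicate 2, 0.445 in replicate 3 and 0.527 in the pooled list, where the weakest IDR peak had 0.528. RpS9, which lies near the mRNA entry of the small subunit, stood at 0.188 and 0.554, RpL7A at 0.499 and 0.454, RpL35 at 0.422 and 0.568 and RpL17 at 0.178 and 0.397. RpL35, RpL7A and RpL17 lie on X, as does RpS15Aa. All 15 members on X had summits in every relaxed list, and 11 of them (73.3%) were bound in the IDR list, against 66 of 78 on the autosomes (84.6%). For all protein-coding genes the IDR shares were 31.9% on X and 30.5% on the autosomes. In the pooled, replicate 2 and replicate 3 lists 56%, 55.2% and 57.4% of all genes on X had a summit, against 44.5%, 48.3% and 46.2% on the autosomes.

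The window of 500 bp left few cases near its edge. Taking for each gene the IDR summit nearest to any of its starts, the bound gene with the most distant one was RpS6, at 300 bp upstream, followed by RpL32 at 256 bp and RpL40 at 238 bp. The nearest unbound genes were RpL35 (558 bp), RpL39 (681 bp) and RpS19b (918 bp). RpL39, whose small protein lines the exit tunnel, starts at position 24062431 of 2R, inside the peak interval that also holds the start of RpL12 (24056543 to 24064505). In replicate 3 it had a summit 30 bp upstream of its TSS at 3.22 times the median, and in replicate 2 none within the window.

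Signal at the bound genes spread widely. The median over the 77 genes was 1.29 (quartiles 0.915 and 2.14, from 0.543 to 41.9), against 1.13 over all 4284 bound protein-coding genes (quartiles 0.789 and 1.83). The medians in the replicate lists were 0.972 in replicate 2 and 1.21 in replicate 3, each relative to the matched peaks of its own list. Medians over all bound genes are not given for the replicates, so the comparison with all bound genes rests on the IDR list. Values of the 2 replicates ran together across the 77 genes (Spearman's rho 0.821, a description over genes that share both libraries). On the log2 scale the multiple in replicate 3 over that in replicate 2 had a median of 0.10 and an SD of 0.63, and 42 genes were higher in replicate 3.

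The median signal was higher at large subunit genes, by an amount that differed between the replicates. Their median multiple was 1.72 in the IDR list, against 1 for small subunit genes, and 37 of 47 (78.7%) lay above the median IDR peak, against 15 of 30 (50%). In replicate 3 the medians were 1.67 and 0.943. In replicate 2 they were 1.14 and 0.919, so the gap was narrower there. Among genes without a paralogue the IDR medians were 1.75 for the large and 1.10 for the small subunit. Outside 100-kb bins in which IDR peaks cover at least 10% of the bases, the IDR medians were 1.53 and 0.976. There the medians in replicate 3 were 1.33 and 0.937, and those in replicate 2 were 0.943 and 0.872.

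**Figure D3:**
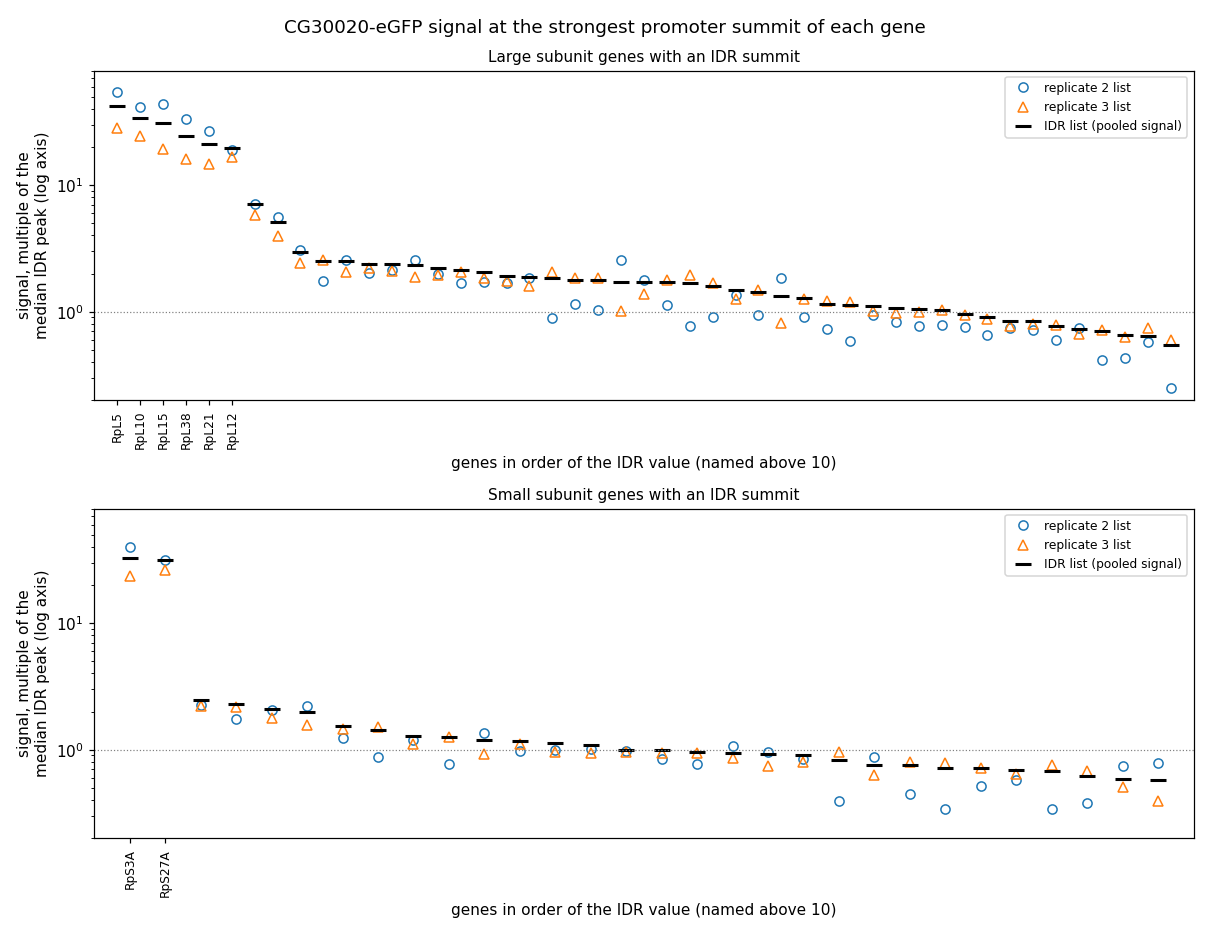
Signal of the strongest promoter summit relative to the median IDR peak (log axis) for the 47 bound large subunit genes (upper panel) and the 30 bound small subunit genes (lower panel), in order of the IDR value along the horizontal axis, with replicate 2 as circles, replicate 3 as triangles and the IDR list as bars. The dotted line marks the median IDR peak, and 8 genes, 6 of the large and 2 of the small subunit, stand above 10.

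A group of 8 genes stood apart from the rest, with 19.5 to 41.9 times the median in the IDR list, while the next gene, RpL31, had 7.07. RpL5, which binds a small ribosomal RNA before it enters the large subunit, had 54.7 in replicate 2 and 28.3 in replicate 3. RpL10, the last protein to complete the catalytic side of the large subunit in yeast, had 41.2 and 24.6. RpS3A on chromosome 4 had 39.7 and 23.6, and RpL15 on 3L had 43.6 and 19.3. RpS27A, which is made as a fusion with ubiquitin, had 31.3 and 26.1. RpL38 had 33.3 and 16.1, RpL21 on 2L had 26.6 and 14.6, and RpL12, at the base of the stalk, had 18.9 and 16.7. All 8 were higher in replicate 2, whereas 42 of the 69 other bound genes were higher in replicate 3.

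The start regions of 3 of these genes are shown as examples with high signal and the TCT initiator, marked in capitals as before. TCTTT was found at 5 of the 8, and not at RpL10 and RpS3A, which came next after RpL5 in signal, or at RpL38. RpL5 lies at chr2L:22536631-22536750 on the minus strand, RpL15 at chr3L:27267155-27267274 and RpS27A at chr2L:10408252-10408371, both on the plus strand. The line for RpL5 is taken at the start that holds TCTTT, 131 bp from the summit, and the summits at RpL15 and RpS27A lay 90 and 96 bp before the starts shown, within the lines.
RpL5: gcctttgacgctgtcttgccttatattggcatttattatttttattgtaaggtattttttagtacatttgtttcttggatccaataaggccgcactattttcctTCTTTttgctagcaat
RpL15: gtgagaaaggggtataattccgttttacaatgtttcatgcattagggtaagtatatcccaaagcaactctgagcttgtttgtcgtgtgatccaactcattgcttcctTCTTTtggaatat
RpS27A: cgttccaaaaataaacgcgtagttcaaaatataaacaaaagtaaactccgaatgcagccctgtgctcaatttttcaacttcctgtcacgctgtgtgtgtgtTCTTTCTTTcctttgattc

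These 8 genes lay in broad peaks, and they were the only ribosomal protein genes whose peak was wider than 2000 bp (8 of 77, or 10.4%, against 4.97% of all bound genes). Their intervals were from 4996 bp at RpS3A to 9091 bp at RpL15, against a median of 484 bp over the 77 genes. RpL5, RpL15 and RpL38 are known from fly genetics as genes within heterochromatin. The peak at RpL15 on 3L (27261433 to 27270523) covered the start of no other protein-coding gene, and neither did that at RpL38 on 2R (4514451 to 4520186). Those at RpL12 and at RpS27A on 2L (10403193 to 10409211) each covered the starts of 5 protein-coding genes. All 8 lie in the heavily covered 100-kb bins, to which their own wide peaks contribute, so the gene and its region cannot be told apart. Outside such bins 68 of 83 ribosomal protein genes were bound (81.9%, against 29.5% of all genes there), with a median multiple of 1.17, against 1.09.

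Below these 8, RpL31, at the exit of the tunnel, had 7.11 in replicate 2 and 5.85 in replicate 3, and RpL27A had 5.64 and 3.97. Among small subunit genes RpS20 followed at 2.27 and 2.20, RpS25 at 1.76 and 2.18, RpS27 at 2.07 and 1.79, and RpS12 at 2.22 and 1.56. The replicates lay close together at RpS20. The stalk that recruits elongation factors is built from RpLP0 (2.01 and 2.22), RpLP1 (0.764 and 1.96) and RpLP2 (0.944 and 1.01), and RpLP1 differed most between replicates. RpL40, the other fusion with ubiquitin, had 2.57 and 1.01, and sta had 0.343 and 0.789. RpS6, the substrate of the growth kinase S6k, had 0.872 and 0.629, from different summits at -127 and -296 bp. The weakest bound genes of the large subunit were RpL7-like, RpL9, RpL29 and RpL37-1, at 0.543 to 0.706 in the IDR list. Low values in the small subunit included RpS14b at 0.623 and RpS2 at 0.682.

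Summits lay close upstream of the start. The strongest summit lay at a median of -90 bp from its nearest TSS (quartiles -130 and -44), against -116 bp over all bound genes (quartiles -189 and -50). Upstream of the TSS lay 72 of the 77 summits (93.5%, against 90.1%), and within the 150 bp just upstream lay 61 (79.2%, against 53.9% of all bound genes). The medians of the large and small subunit genes, -92 and -86 bp, were alike. The replicates' own summits at a gene lay a median of 31 bp apart, and for 50 of the 77 genes at most 50 bp. The strongest summits of RpL40 (-440 bp), RpL10Ab (-403 bp) and RpS19a (-352 bp) were the most distant, and each lay nearer to the start of another gene.

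**Figure D4:**
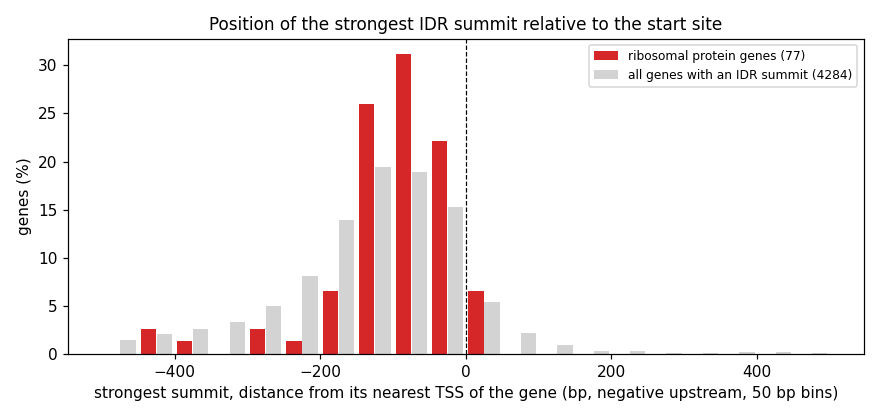
Distance of the strongest IDR summit from its nearest TSS of the gene (horizontal axis, 50-bp bins, negative upstream) for the 77 bound ribosomal protein genes and for all 4284 bound protein-coding genes, as a percentage of genes (vertical axis). Ribosomal protein genes reach 31.2% in the bin from -100 to -50 bp, where all bound genes have 18.9%.

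Some of these summits lie between a pair of starts. A gene on the other strand starts within 500 bp upstream of 39 of the 93 genes (41.9%), and 36 of those were bound (92.3%), against 41 of the 54 without such a neighbour (75.9%). Over all protein-coding genes the shares were 61.7% with a neighbour and 18.4% without. The strongest summit lay nearest to the gene's own start at 65 of the 77 bound genes (84.4%). Exceptions included RpL32, whose summit was nearest to CG7943, RpL13, nearest to Dref, and RpS13, nearest to CSN8. No pair of ribosomal protein genes had the same strongest summit. Within the span of 29 genes lie genes for small nucleolar RNAs, 14 of them in RpS5a alone, and 26 of the 29 were bound (89.7%), against 51 of the other 64 (79.7%). The other 64 include the 6 paralogues with no summit in any list. The same shares over all protein-coding genes are not given, so this is not shown to be particular to ribosomal protein genes.

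Sequence around the start was not used to choose the genes. TCTTT on the sense strand within 20 bases of any annotated start was found at 66 of the 93 genes (71%), against 6.81% of all protein-coding genes. TCAGT, the core of the common initiator, was found at 3 (3.23%), against 22.4%. From 250 bases before to 50 after the start, on both strands, TATCGATA was found at 28 genes (30.1%, against 10.2%), GGTCACAC, the core of the motif bound by M1BP, at 16 (17.2%, against 8.71%) and CACGTG at 15 (16.1%, against 5.30%). CGATA, which lies within TATCGATA, was found at 68 (73.1%, against 53%). TATAAA was found at 51.6%, against 51.2%, but at 15.1%, against 28.3%, when the window began 100 bases before the start. Both CAGCTG (11.8%, against 22.3%) and GAGAG (20.4%, against 36.3%) were less frequent than in all promoters. CACGTG was found at 13 of 54 large subunit genes (24.1%) and 2 of 39 small subunit genes (5.13%). TCTTT was found at 75.9% and 64.1% of large and small subunit genes and TATCGATA at 27.8% and 33.3%.

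Binding was then counted by the letters present. Letters near the start and summits were both counted over any annotated start. Of ribosomal protein genes with 1 annotated start 77.1% were bound, against 88.9% of those with 2 or more. The part that the number of starts played was not tested. With TCTTT 57 of 66 were bound (86.4%), and without it 20 of 27 (74.1%). The unbound genes without TCTTT were the paralogues RpL10Aa, RpL22-like, RpS10a, RpS15Ab, RpS19b and RpS28-like and, outside the paralogue groups, RpL17. The difference is thus not shown to hold apart from the paralogue groups. Over all other protein-coding genes the share was 36.2% with TCTTT and 30% without. With TATCGATA 25 of 28 were bound (89.3%) and without it 52 of 65 (80%), where other protein-coding genes had 61.8% and 26.9%. The share was also higher with CACGTG (86.7%, against 82.1% without), GAGAG (89.5%, against 81.1%) and TATAAA (87.5%, against 77.8%), and all 3 genes with TCAGT were bound. Within the large subunit the order was the opposite for CACGTG (84.6%, against 87.8%), GAGAG (85.7%, against 87.5%) and TATAAA (85.2%, against 88.9%). In the small subunit 2 of 2, 5 of 5 and 19 of 21 genes with these letters were bound, higher shares than without them. Over both subunits the share was lower with GGTCACAC (81.2%, against 83.1%), CGATA (82.4%, against 84%) and CAGCTG (81.8%, against 82.9%). Among other protein-coding genes the share was higher with CACGTG (37.6%, against 30%) and TATAAA (33.5%, against 27.1%). There it was also higher with GGTCACAC (59.8%, against 27.6%), CGATA (39.7%, against 19.8%) and CAGCTG (38%, against 28.2%). Lower shares were found there with GAGAG (28%, against 31.7%) and TCAGT (20.8%, against 33.2%). Within 50 bp of the summits TATCGATA was found at 9.09% of the bound ribosomal protein genes, against 6.84% of all bound genes. CGATA was found there at 35.1%, against 31.5%, CAGCTG at 9.09%, against 4.06%, and CACGTG at 3.90% (3 of the 77 genes), against 0.887%. Lower at ribosomal protein genes than at all bound genes were GGTCACAC (2.60%, against 3.87%), TATAAA (14.3%, against 24.9%) and GAGAG (5.19%, against 6.33%). For GGTCACAC (2 of the 77 genes) and CAGCTG (7 of the 77) the order differs from that in the promoter windows. Those windows set all 93 genes beside all protein-coding genes, bound or not, so the 2 orders are not directly comparable. The match is a description of letters, and binding of any factor to them was not measured here.

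Other genes of ribosome synthesis were taken from a pair of fixed lists. Of 48 matched genes for ribosome assembly and the synthesis of ribosomal RNA, 34 were bound (70.8%, against 30.7% of all genes), with a median multiple of 1.08 among the bound genes. The strongest were Tif-IA, an initiation factor of RNA polymerase I, at 22 in replicate 2 and 12 in replicate 3, the kinase RIOK2 at 5.20 and 4.59, the nucleolar GTPase Ns2 at 2.59 and 2.55, and the GTPase Non1 at 2.29 and 2.26. Tif-IA lies in a heavily covered bin. Of 21 regulators of ribosomal protein genes and growth, 11 were bound (52.4%), with a median of 1.88. They were led by the GTPase Rheb at 11 and 11.4, the growth kinase mTor at 4.26 and 2.99, larp, which binds mRNAs of ribosomal proteins in mammals, at 3.07 and 2.99, and M1BP at 2.23 and 2.22. Trf2, the gene of TRF2, had no IDR summit and stood at 0.476 and 0.306. The growth regulator Myc had none either, and of the replicate lists only that of replicate 3 held a summit, at 0.328.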

How the data were processed

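Per the labels, chromatin from transgenic embryos was immunoprecipitated with an antibody against GFP, in fragments of 200 to 800 bp. The authors deposited 4 peak lists on dm6. The lists of each replicate and of the pooled replicates hold 30000 peaks each and were called against a control alignment, and the IDR list (5048 peaks) was derived from them, per the file notes of the authors. Aligner, caller and read depth are not stated in the labels or notes, so no precision from depth can be stated. The signal value per peak is a score deposited by the authors on a scale that is not stated, and serves only as a multiple of a median within its list. The deposited −log10 q value was not used.

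Gene models were those of Ensembl release 115, with sequence of Release 6. Replicate multiples use the strongest summit within 250 bp of each IDR summit for the median. Where several summits were in the window, the strongest was taken. Divergent genes and 100-kb bins were assigned from the outermost TSS. Genes were named by rank and group: the strongest and weakest of each subunit, every unbound gene and every paralogue, some of which are not reported here. Summits nearest to another gene and the 3 start regions with high signal were chosen after their values were seen. The members and lists were chosen with earlier results of these data known. Calls were tested on simulated peaks. Python 3.11.15, numpy 2.4.6 and pandas 2.3.3 were used. Of the symbols listed for ribosome assembly, 5 matched no gene and others were synonyms of a listed gene.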

Additional observations from a re-analysis of the deposited data

How the results depend on the processing

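Alternatives that used fewer genes left 68 of 83 ribosomal protein genes bound outside heavily covered bins (81.9%) and 74 of 88 without symbols ending in -like. Of all 93 genes, 70 to 80 were bound under each other alternative tried except the stronger part of the IDR peaks (2524 peaks), which left 52. With that part small subunit genes fell to 15 of 39 (38.5%, against 18% of all protein-coding genes), while large subunit genes were 37 of 54 (68.5%). The number of paralogue groups with all genes bound was 5, and fell to 2 with that part. Across single replicates, where replicate 3 or replicate 2 was left out, it was 3 and 5, the bound genes were 72 and 78, and the median multiple was 0.972 and 1.21, against 1.29 in the IDR list. These multiples are relative to a different median in each list. With windows of 200 and 1000 bp 74 and 80 genes were bound (24.9% and 32.9% of all genes), and counting a summit only for the gene with the closest start gave 70 (22.3% of all genes). The median summit offset ranged from -101 to -80 bp. The share with TCTTT was 52.7% when only the start of the canonical transcript was searched (4.89% of all genes), an alternative chosen after seeing the data. No paired analysis was possible because the labels give 1 group. Depth is unknown, so a gene without a summit is not shown to be free of the protein.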
